A study of Mus musculus with 4 samples.

Results

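The 8 genes described here, Trim12a, Trim34a, Trim30d, Gm35082, Arl6ip1, Acadsb, Hddc3 and Olfml1, all lie on mouse chromosome 7. They were selected by name because earlier results of the same libraries had shown knockout and wild-type values apart, chiefly in the retinal pigment epithelium (RPE) and, for Trim12a, in fibroblasts. They are 8 of the 32285 genes listed in each count table, and their levels in those cells are therefore given as a description, with no test. Droplet single-cell RNA sequencing (10x Genomics) had been carried out on mouse RPE and choroid. The RPE is a pigmented epithelium that supports the photoreceptors, and the choroid is its blood supply. The groups were wild-type mice at 1 month, Vldlr-/- mice (knockout of the very low density lipoprotein receptor) at 1 month, wild-type mice at 2 months and Vldlr-/- mice at 2 months, each of them 1 library. The strain of either genotype and the number of animals behind a library are not given in the sources used here, so genotype, strain background and library cannot be told apart. No difference has a replicate check, and every interval printed covers counting error only.

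TRIM proteins are a large family of ubiquitin ligases, and the Trim5, Trim12, Trim30 and Trim34 genes form a rodent cluster of antiviral and immune regulators, many of them induced by interferon. Arl6ip1 encodes a membrane protein that shapes tubules of the endoplasmic reticulum. Acadsb encodes a mitochondrial acyl-CoA dehydrogenase of isoleucine breakdown, Hddc3 a hydrolase that acts on NADPH and ppGpp, and Olfml1 a secreted protein with an olfactomedin domain. Gm35082 is annotated as a long intergenic noncoding RNA.

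In GRCm38 coordinates, Trim34a (104244457 to 104262234, plus strand), Trim12a (104299894 to 104315466, minus strand) and Trim30d (104470014 to 104507849, minus strand) sat in the TRIM cluster. Gm35082 (100675088 to 100677760, plus strand) and Olfml1 (107567446 to 107591094, plus strand) lay on either side of it. Hddc3 (80343104 to 80350547, plus strand), Arl6ip1 (118118891 to 118129662, minus strand) and Acadsb (131410601 to 131448944, plus strand) were farther away. The 3' end of Hddc3 overlapped Man2a2 and Acadsb overlapped Fgfr2, both on the opposite strand. All 8 genes had an entry in the RefSeq promoter table of build GRCm38.p6. The 250 bases before the start are printed for the 3 TRIM members, for their neighbour Trim5 and for Gm35082, since these had the widest gaps between genotypes. Each runs 5' to 3' on the gene's own strand, and capitals mark CCAAT and the paired GAAA motif (GAAA, any 2 bases, GAAA), a core of the interferon-stimulated response element, both searched on both strands.
Trim12a, chr7:104315496-104315745, minus strand: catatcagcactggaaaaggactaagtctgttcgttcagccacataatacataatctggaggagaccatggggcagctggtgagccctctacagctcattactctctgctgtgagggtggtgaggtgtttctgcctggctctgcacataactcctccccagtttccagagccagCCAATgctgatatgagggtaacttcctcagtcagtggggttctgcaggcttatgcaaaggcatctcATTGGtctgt
Trim34a, chr7:104244207-104244456, plus strand: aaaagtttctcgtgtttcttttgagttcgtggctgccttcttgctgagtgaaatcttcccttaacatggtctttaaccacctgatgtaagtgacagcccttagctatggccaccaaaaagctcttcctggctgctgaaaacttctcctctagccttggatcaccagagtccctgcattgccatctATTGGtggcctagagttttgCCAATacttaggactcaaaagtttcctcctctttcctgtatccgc
Trim30d, chr7:104507850-104508099, minus strand: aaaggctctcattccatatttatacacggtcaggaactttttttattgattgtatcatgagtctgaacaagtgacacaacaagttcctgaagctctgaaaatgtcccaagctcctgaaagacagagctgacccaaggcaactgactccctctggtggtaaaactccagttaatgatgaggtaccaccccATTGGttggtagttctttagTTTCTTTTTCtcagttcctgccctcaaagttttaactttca
Trim5, chr7:104288107-104288356, minus strand: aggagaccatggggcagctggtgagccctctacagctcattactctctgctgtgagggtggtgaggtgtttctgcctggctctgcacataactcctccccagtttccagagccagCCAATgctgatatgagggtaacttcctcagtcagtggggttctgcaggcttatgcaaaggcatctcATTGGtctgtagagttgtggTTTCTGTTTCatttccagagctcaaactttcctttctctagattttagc
Gm35082, chr7:100674771-100675020, plus strand, 1 of 3 starts listed: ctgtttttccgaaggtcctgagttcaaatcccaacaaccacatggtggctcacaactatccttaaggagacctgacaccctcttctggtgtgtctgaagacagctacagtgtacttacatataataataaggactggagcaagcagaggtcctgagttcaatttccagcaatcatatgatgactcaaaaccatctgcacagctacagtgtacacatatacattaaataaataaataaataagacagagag
The paired GAAA motif was present before Trim30d (41 to 32 bases before the start), Trim5 (49 to 40) and, among the members not printed, Arl6ip1 (117 to 108). In 2.98% of all 32851 promoters of this length the same letters occurred. CCAAT was found before all 4 TRIM genes printed and before Arl6ip1 and Olfml1, against 33.8% of all promoters. Neither motif was found in these windows for Gm35082, Acadsb or Hddc3. The Trim12a window ends in the stretch of letters that opens the Trim5 window, and stops before the place of the paired GAAA motif in Trim5. Bases past the annotated start of Trim12a were not searched, so a lack of that motif is shown for this window only. The windows of Trim12c and, at 1 of its 2 starts, Trim30a also held the paired GAAA motif, although neither gene was 2-fold apart in any class measured. These are matches of letters in the reference genome and were not tied to the differences described next.

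The libraries held 11194301 to 23070271 UMIs (unique molecules), and 1140 to 2047 barcodes per library passed the filters (300 genes or more, mitochondrial UMIs not above 30%). A count of cell barcodes found 1 barcode shared between the knockout libraries and none shared in the other 5 pairs of libraries. Cells were clustered, classes were named from marker genes, and levels are given as CPM, the UMIs of a gene per 1000000 UMIs of its class in that library. Each RPE-like cluster had 8 of the 10 RPE markers detected. Vldlr itself was lower in the RPE-like cells of the knockout libraries, at 137 against 12.2 CPM at 1 month and 183 against 28.1 CPM at 2 months. In rod-like cells at 1 month the wild-type level was 318 CPM and the knockout level 201 CPM. The Cadm2-led cluster at 2 months had 311 and 258 CPM, and the Mir124a-1hg-led cluster at 1 month 366 and 348 CPM. Over all kept cells at 1 month the library labelled knockout had more Vldlr (24.6 and 39.3 CPM), in a mix with 343 rod-like cells against 105. Which part of Vldlr the counted reads came from was not tested. Fewer cells of a type and less RNA per cell cannot be told apart in the sums over all kept cells, because the libraries differed in their mix of classes (RPE-like cells numbered 206, 150, 1214 and 547 in the order of the groups given above). Values are therefore set side by side within an age and, where counts allow, within a class. Ratios of neighbouring genes are given over all kept cells, where the median log2 ratio of all genes was 0.10 at 1 month and 0.24 at 2 months.

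Trim12a was almost absent from the knockout libraries in each class where wild-type cells held at least 30 of its UMIs. Of the 18 pairs of class and age with at least 20 cells in both libraries, 7 had at least 30 Trim12a UMIs. In all 7 it was at least 2-fold lower in knockout, with a median log2 ratio of -5.36 (range -7.02 to -3.80). Each of the 7 reached 30 UMIs through wild type alone, so this count is a description. In 2 of the 7 the knockout library held no UMI and the fitted ratio depends on the 0.5 counts added. With these at their bound the median was -4.43. B cell-like cells held 224 UMIs (145 CPM) in the wild-type and 3 UMIs (1.90 CPM) in the knockout library at 1 month, a log2 ratio of -6.04 (95% interval -8.54 to -4.69). T or NK cell-like cells held 351 UMIs (119 CPM) against 3 (1.67 CPM), and the log2 ratio was -5.93 (-8.43 to -4.59). The knockout level was thus near 0 in both lymphoid classes. The cluster led by Lyz2, Lst1 and Cybb, left unnamed because its leading genes include those of monocytes, had 88 UMIs (59.3 CPM) against 0, at least 21.5-fold lower. This bound sets the empty library at 3 UMIs.

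Fibroblast-like cells, in which Trim12a had been chosen, held 127 UMIs (53.9 CPM) against 8 (2.69 CPM) at 1 month and 41 (29.2 CPM) against 1 (0.481 CPM) at 2 months. In RPE-like cells the counts were 3 against 0 at 1 month, too few for a ratio, and 110 (8.32 CPM) against 4 (0.533 CPM) at 2 months. Wild-type and knockout intervals did not overlap in any of these pairs with at least 30 UMIs. With 19 to 28 UMIs in wild type and 0 in knockout, endothelial-like, mural-like and macrophage-like cells at 2 months lay on the same side, at least 15.0-fold, 5.20-fold and 10.4-fold lower. Rod-like cells held no Trim12a UMI in any library, so a difference there was not detectable at this depth (105, 343, 36 and 22 cells). In wild-type cells at 1 month the level was highest in B cell-like and T or NK cell-like cells, whose intervals overlapped. The Lyz2-led cluster (59.3 CPM) and fibroblast-like cells (53.9 CPM) came next, below T or NK cell-like cells beyond counting error. Of B cell-like cells, 54.1% (exact Clopper-Pearson 95% interval 47.8 to 60.4) had a UMI in wild type and 1.14% (0.236 to 3.30) in knockout. After each cell was thinned to 1000 UMIs, the shares were 18.3% of 252 cells and 0.382% of 262 cells.

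Trim34a and Trim30d were also lower in knockout in the classes where they were measured. Trim34a was at least 2-fold lower in all 5 measured pairs, with a median log2 ratio of -2.32 (range -4.67 to -1.25). Each of the 5 reached 30 UMIs through wild type alone, so this count is a description. B cell-like cells held 211 UMIs (137 CPM) in wild type against 8 (5.06 CPM) in knockout, a log2 ratio of -4.67 (-5.99 to -3.75). In T or NK cell-like cells the counts were 111 and 13, a log2 ratio of -2.32 (-3.32 to -1.54). The 2 intervals did not overlap, so the Trim34a ratio was larger in B cell-like cells than in T or NK cell-like cells beyond counting error. Fibroblast-like cells at 1 month had 47 and 18 UMIs, a log2 ratio of -1.70, and RPE-like cells at 2 months had 35 and 8, a log2 ratio of -1.25 (-2.63 to -0.18). Trim30d was measured in 4 pairs and was at least 2-fold lower in all 4, with a median log2 ratio of -4.02, or -3.86 with the 1 pair that had an empty library at its bound. These 4 pairs also reached 30 UMIs through wild type alone. The measured pairs were all of immune classes, with 45 UMIs against 0 in B cell-like cells (at least 15.4-fold lower), 47 against 1 in T or NK cell-like cells, 78 against 4 in the Lyz2-led cluster and 39 against 4 in macrophage-like cells at 2 months. RPE-like cells at 2 months held 27 UMIs in wild type and 2 in knockout, just under the minimum of 30.

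The members stood beside TRIM genes that did not share the gap. Between Trim34a and Trim12a lies Trim5 (104263386 to 104288094, minus strand), which was not selected. Over all kept cells Trim5 gave 207 wild-type and 2 knockout UMIs at 1 month, and 56 and 0 at 2 months. In B cell-like cells the Trim5 counts were 69 and 1, and in T or NK cell-like cells 82 and 0, at least 16.6-fold lower. Trim12c, the next measured gene after Trim12a, held 143 UMIs in wild-type and 134 in knockout B cell-like cells, a log2 ratio of -0.13 (-0.48 to 0.22), and 200 and 113 in T or NK cell-like cells, a ratio of -0.10 (-0.45 to 0.24). Trim30a, the measured gene before Trim30d, held 136 and 107 UMIs in B cell-like cells (-0.38, -0.76 to -0.00) and 226 and 135 in T or NK cell-like cells (-0.02, -0.34 to 0.29). A low TRIM level in knockout was thus interleaved with TRIM genes that were not 2-fold apart in lymphoid cells. Trim30b was lower in B cell-like cells, at 54 and 10 UMIs, and in the Lyz2-led cluster, at 44 and 9. Trim34b, scarcely counted in wild type, gave 1 UMI there against 13 for the knockout at 1 month over all kept cells, and 0 and 24 at 2 months. Its count stayed under 30 in every class.

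**Figure D1:**
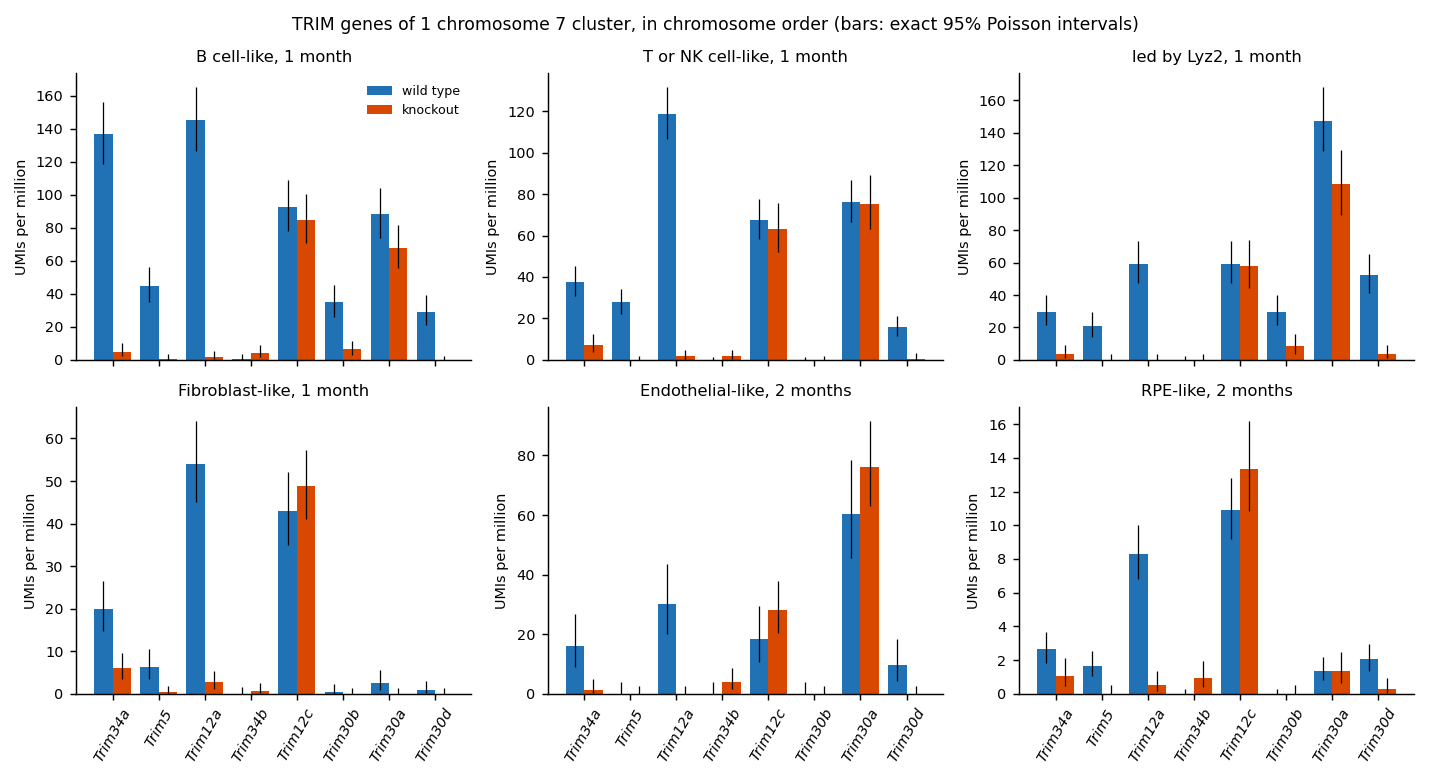
Level (CPM, linear axis from 0) of 8 TRIM genes in chromosome order in the wild-type (blue) and knockout (orange) library of 6 pairs of class and age, with exact 95% Poisson intervals. Trim34a, Trim5, Trim12a and Trim30d are low in the knockout bars, while Trim12c (143 and 134 UMIs in B cell-like cells) and Trim30a (136 and 107) are of similar height in the lymphoid classes. Trim30d is also low in wild type in fibroblast-like (0.849 CPM), endothelial-like (9.70 CPM) and RPE-like cells (2.04 CPM).

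Sequence shared between these paralogs bears on which gene a read was assigned to. Over the last 500 bases of the annotated transcripts, where 3' counting reads fall, 28.6% of the 31-base words of Trim34a also occurred in transcripts of another gene, all of them in Trim34b. The share was 64.7% for Trim34b, 49.9% for Trim5, 32.8% for Trim12c, 23.6% for Trim30a, 21.6% for Trim30d and 10.8% for Trim12a. Trim34b, Trim5 and Trim12c thus had the largest shares, and their counts are the least certain. For Arl6ip1, Acadsb, Olfml1 and Gdpd3 the share was 0%, for Gm35082 16.9% and for Hddc3 20.6%. A difference between strains in these 3' sequences was not tested.

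Gm35082 had the opposite pattern: it was close to absent in wild type and counted in every class of the knockout libraries. Over all kept cells the wild-type library gave 2 UMIs and the knockout 527 at 1 month, and 0 and 477 at 2 months. The wild-type library held 0 or 1 UMI in each of the class-age pairs. B cell-like cells had 0 UMIs against 122 (77.1 CPM, at least 39.7-fold higher), T or NK cell-like cells 1 against 129 (72.0 CPM), and rod-like cells at 1 month 0 against 115 (67.6 CPM, at least 9.15-fold higher). Rod-like cells, which lacked Trim12a in both genotypes, thus carried Gm35082 in knockout. Fibroblast-like cells had 0 against 94 at 1 month and 0 against 73 at 2 months. Endothelial-like cells at 2 months had 0 against 66, the cluster led by Cadm2 0 against 77, and RPE-like cells 0 against 148 (19.7 CPM, at least 86.9-fold higher). All 8 measured pairs were at least 2-fold higher. Each of the 8 reached the minimum of UMIs through the knockout library alone, so this count is a description. The fitted log2 ratios, which depend on the 0.5 counts added, had a median of 6.97, or 4.42 with the 7 pairs that had an empty wild-type library at their bound.

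Among knockout cells at 1 month, Gm35082 was highest in B cell-like, T or NK cell-like and rod-like cells (77.1, 72.0 and 67.6 CPM), neighbours whose intervals overlapped. It was 31.6 CPM in fibroblast-like cells, 15.1 CPM in macrophage-like cells and lowest in RPE-like cells at 12.2 CPM, from 4 UMIs. At 2 months RPE-like cells were again the lowest, at 19.7 CPM, with an interval that overlapped that of the next class. In RPE-like cells of the 2-month knockout library 17.2% of 547 cells (14.1 to 20.6, median depth 9639 UMIs) had a UMI, against 0 of 1214 wild-type cells (median depth 8093 UMIs), which allows a share of cells with a UMI of up to 0.247% (3 cells of the total). Thinned to 1000 UMIs per cell, the shares were 0.792% of knockout cells and 0% of wild-type cells. Of the neighbours on either side, Plekhb1 had log2 ratios of 1.48 and -0.03 over all kept cells, 0.57 and 0.22 in RPE-like cells and 1.01 and 1.04 in fibroblast-like cells at 1 and 2 months. Fam168a had 0.43 and 0.38 over all kept cells.

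**Figure D2:**
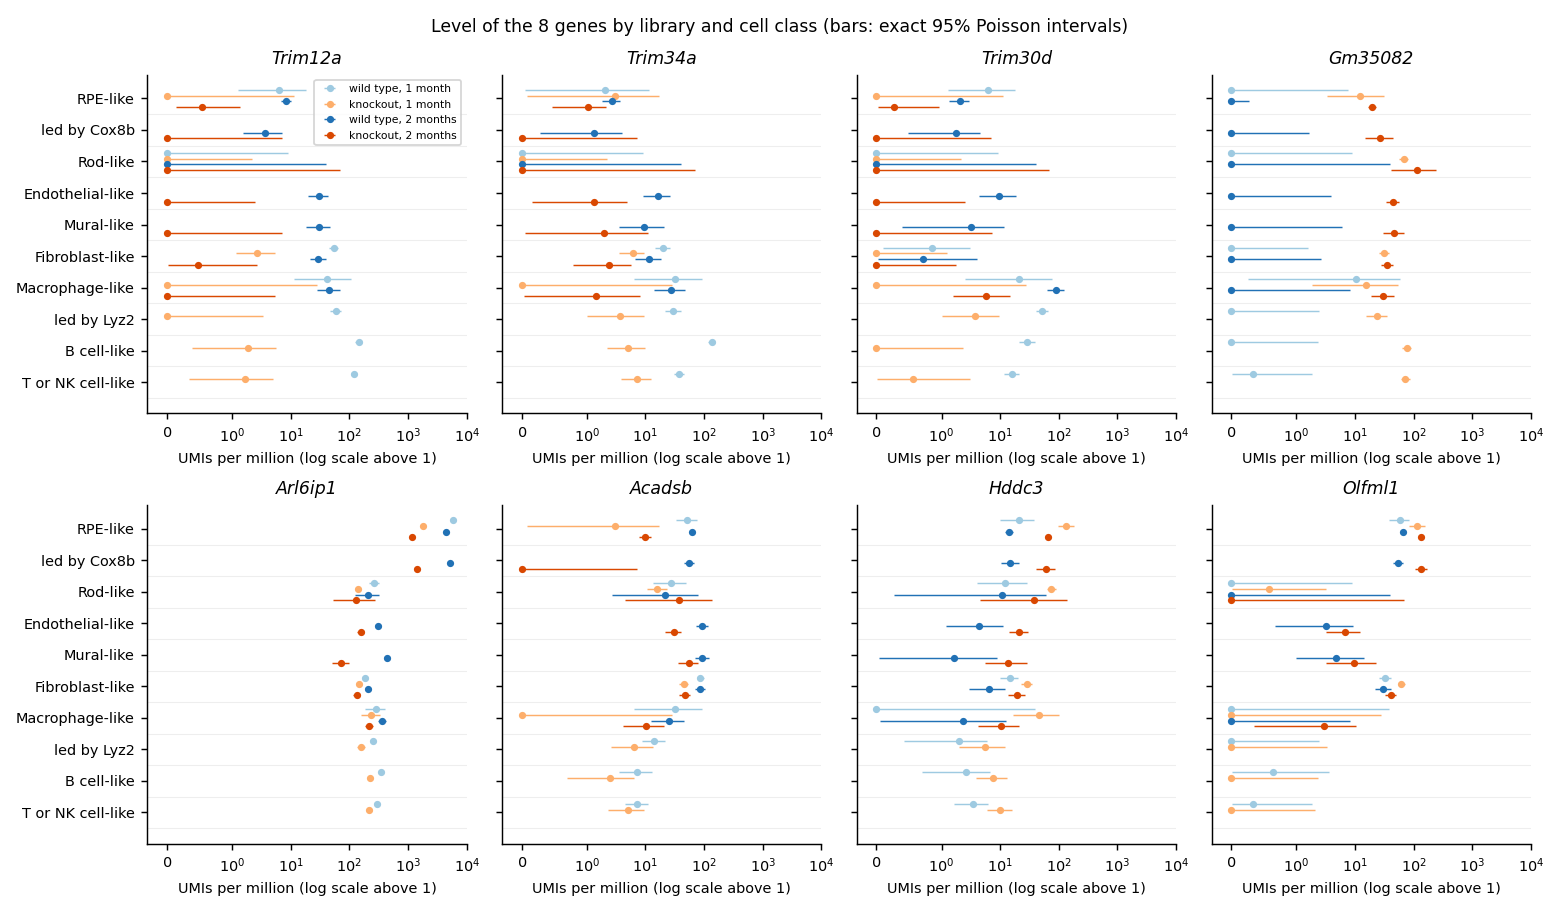
Level of each of the 8 genes (CPM, log scale above 1) in 10 cell classes, with exact 95% Poisson intervals. Each library has 1 point where both libraries of its age held at least 20 cells of the class. Trim12a and Trim30d sit at or near 0 in the knockout libraries (orange) where wild type (blue) is counted, Trim34a is lower but still counted (7.25 against 37.5 CPM in T or NK cell-like cells), Gm35082 is at or near 0 in wild type, and Arl6ip1 is highest in RPE-like cells at 1 month and in the Cox8b-led cluster, followed by RPE-like cells, at 2 months.

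Arl6ip1 was the most widely measured member and was lower in knockout in all 16 measured pairs, but the size of the gap differed between classes. RPE-like cells held 2870 UMIs (5958 CPM) in wild type against 584 (1780 CPM) for the knockout at 1 month, a log2 ratio of -1.74 (-1.87 to -1.61). At 2 months they held 59868 UMIs (4529 CPM) against 8940 (1191 CPM), a log2 ratio of -1.93 (-1.96 to -1.90). The cluster led by Cox8b, Pmel and Trpm1, which carried RPE markers, had 11490 and 748 UMIs, a log2 ratio of -1.83 (-1.94 to -1.73). These 3 pairs used the contrast by which the gene was chosen or cells that share it. In wild-type cells at 1 month the level was 5958 CPM in RPE-like cells and 186 to 372 CPM in the other 8 classes. RPE-like cells stood above the next class beyond counting error, and most neighbours below it did not differ beyond it.

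Outside the RPE the gap was smaller. B cell-like cells had 542 and 349 UMIs, a log2 ratio of -0.67 (-0.87 to -0.47), and T or NK cell-like cells 878 and 392, a ratio of -0.44 (-0.62 to -0.27). Fibroblast-like cells had 438 and 434 UMIs at 1 month, a ratio of -0.35 (-0.55 to -0.16), and 293 and 276 at 2 months, a ratio of -0.65 (-0.89 to -0.41). None of these intervals overlapped that of RPE-like cells of the same age. RPE transcripts carried over into other droplets moved with some of the values. In mural-like cells at 2 months Arl6ip1 gave 273 wild-type and 37 knockout UMIs, a ratio of -2.58. There the RPE markers were at 5718 and 2420 CPM, and carry-over in proportion to those markers would give 243 and 23.2 UMIs. With that subtracted the ratio was -0.88. It was 0.16 in place of -0.75 in macrophage-like cells at 2 months, -0.63 in place of -1.16 in the Gpx3-led cluster and -0.88 in place of -1.33 in the Cadm2-led cluster. After the subtraction 0 pairs outside the RPE were 2-fold apart. All 7 pairs at 1 month (range -0.89 to -0.22) and 5 of 6 at 2 months were still lower in knockout.

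Acadsb was lower in knockout in all 10 measured pairs, with a median log2 ratio of -0.88, and 3 of them were at least 2-fold apart. RPE-like cells at 2 months held 826 UMIs (62.5 CPM) in wild type against 75 (9.99 CPM), a log2 ratio of -2.64 (-3.01 to -2.30). At 1 month they held 25 and 1, under the minimum of 30. The Cox8b-led cluster had 124 UMIs and 0, at least 9.61-fold lower. Of the 75 knockout UMIs at 2 months, 68 lay in the RPE-like cells with Malat1, a nuclear RNA, at or above 1000 CPM, and 7 in those below. The log2 ratio was -2.0 (-2.42 to -1.61) in the first and -4.90 (-6.32 to -3.95) in the second. The intervals did not overlap, and the reason for the gap was not tested.

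In other classes the Acadsb gap was mostly smaller. Fibroblast-like cells held 204 and 133 UMIs at 1 month (86.6 and 44.7 CPM) and 120 and 97 at 2 months, with log2 ratios of -0.95 (-1.28 to -0.63) and -0.87 (-1.27 to -0.48). Endothelial-like cells at 2 months had 86 and 45 UMIs, a ratio of -1.61 (-2.18 to -1.09). The Gpx3-led cluster had 232 and 42, a ratio of -0.88 (-1.40 to -0.41), and mural-like cells 58 and 28, a ratio of -0.75 (-1.47 to -0.09). These intervals lay below 0, and of them that of endothelial-like cells alone lay wholly past 2-fold. In T or NK cell-like cells (21 and 9 UMIs), rod-like cells (11 and 27) and the Cadm2-led cluster (28 and 31) the intervals included 0. Among wild-type cells at 2 months, the level of Acadsb was highest in the Gpx3-led cluster (175 CPM), followed by mural-like (93.0), endothelial-like (92.7) and fibroblast-like cells (85.5), which did not differ beyond counting error.

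Hddc3 was higher in knockout in 7 of 8 measured pairs, 6 of them at least 2-fold, with a median log2 ratio of 2.07. RPE-like cells held 10 UMIs (20.8 CPM) in wild type against 44 (134 CPM) for the knockout at 1 month, a ratio of 2.64 (1.68 to 3.85), and 187 (14.1 CPM) and 484 (64.5 CPM) at 2 months, a ratio of 2.19 (1.94 to 2.44). Rod-like cells at 1 month had 5 and 127 UMIs (12.3 and 74.6 CPM), a ratio of 2.47 (1.34 to 4.25). Endothelial-like cells at 2 months had 4 and 31, a ratio of 2.12 (0.77 to 4.23). Fibroblast-like cells had 34 and 85 at 1 month and 9 and 40 at 2 months, with ratios of 0.97 (0.39 to 1.60) and 1.53 (0.52 to 2.81). The exception among the measured pairs was the Cadm2-led cluster at 2 months, with 15 and 19 UMIs and a ratio of -0.15 (-1.20 to 0.94). The Gpx3-led cluster at 2 months, under the minimum with 22 and 5 UMIs, had a ratio of -0.46 (-2.32 to 0.87). Neither interval overlapped that of RPE-like cells of the same age, so the higher Hddc3 level was not shared by every class. Man2a2, which overlaps Hddc3 on the opposite strand, had log2 ratios of 0.81 and -0.07 over all kept cells, and Unc45a on the other side -0.24 and -0.10.

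Olfml1 was measured in RPE-related and fibroblast-like cells only, and was higher in knockout in all 5 pairs. RPE-like cells held 28 UMIs (58.1 CPM) in wild type against 38 (116 CPM) for the knockout at 1 month, a log2 ratio of 0.99 (0.25 to 1.75). At 2 months they held 883 (66.8 CPM) and 998 (133 CPM), a ratio of 0.99 (0.86 to 1.13). Both lay just under 2-fold. The Cox8b-led cluster had 122 and 70 UMIs, a ratio of 1.31 (0.86 to 1.74). Fibroblast-like cells had 78 and 185 at 1 month and 42 and 86 at 2 months, with ratios of 0.90 (0.52 to 1.31) and 0.46 (-0.08 to 1.04), the last with an interval that included 0. Wild-type RPE-like cells stood above fibroblast-like cells at 2 months (66.8 and 29.9 CPM) beyond counting error.

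**Figure D3:**
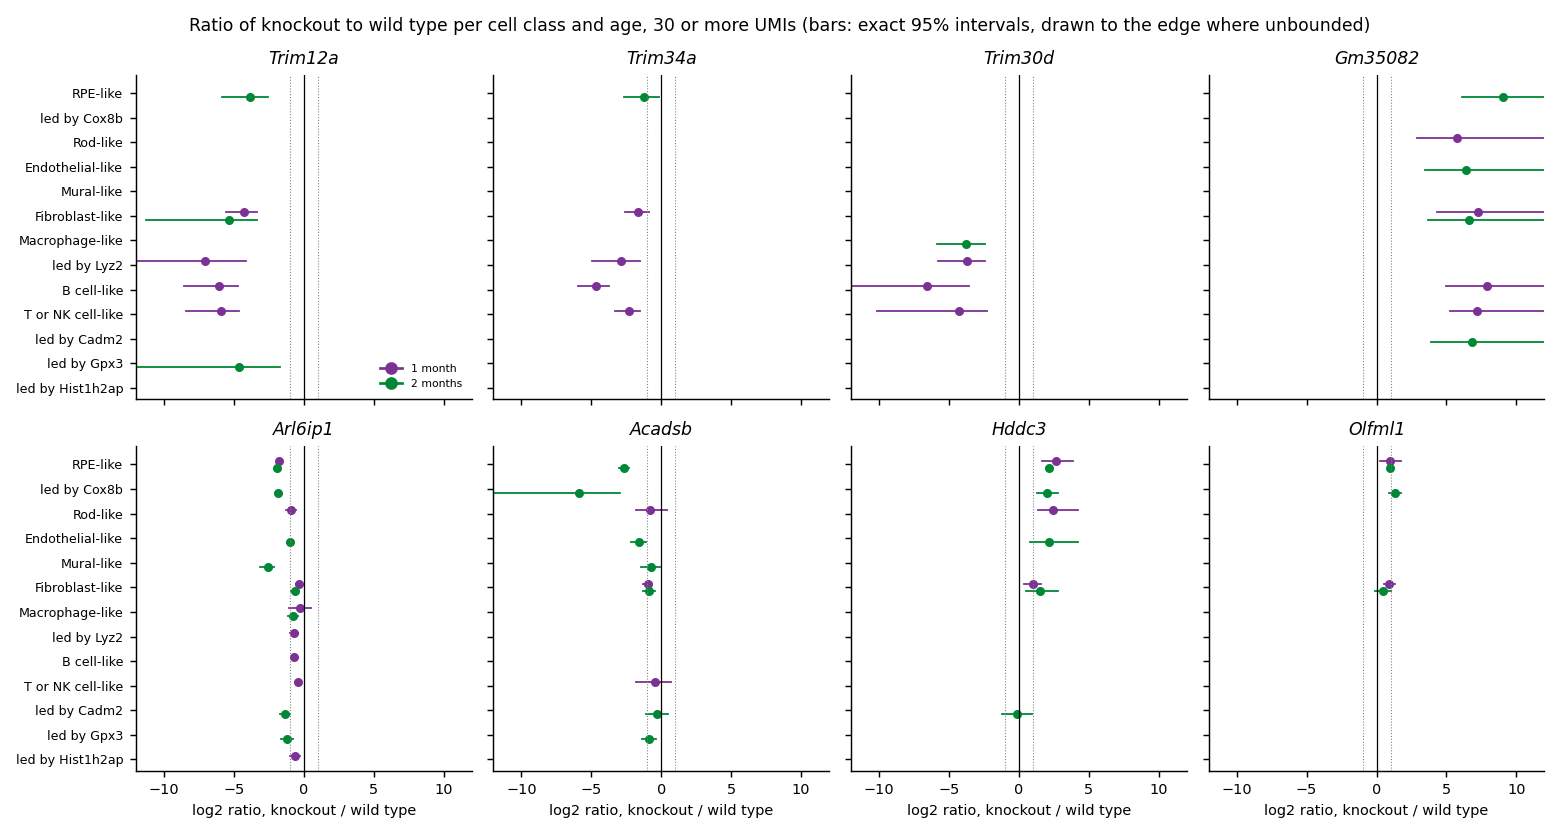
Log2 ratio of knockout to wild type for each gene in each pair of class and age with at least 30 UMIs (purple 1 month, green 2 months), with exact 95% intervals and dotted lines at 2-fold. Trim12a, Trim34a and Trim30d lie left of -1 and Gm35082 right of 1 in all measured pairs. Each of these pairs reached 30 UMIs through 1 genotype alone. Arl6ip1 and Acadsb lie left of 0 with unequal sizes, and Hddc3 has 1 pair at -0.15.

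The counts of members at least 2-fold apart are given beside the share of all genes measured in the same cells. A member that reached 30 UMIs through 1 genotype alone, as the 4 called in B cell-like cells did, was more likely to be apart. It did not have to be, since Acadsb in mural-like cells (58 and 28 UMIs) had a log2 ratio of -0.75. The counts are therefore a description and support nothing further. In B cell-like cells at 1 month 4 of 5 measured members were apart, against 2.32% of all genes. In T or NK cell-like cells it was 4 of 6 against 3%, and in the Lyz2-led cluster 3 of 4 against 3.54%. The 4 lymphoid calls were the same genes in both classes: Gm35082, Trim12a, Trim30d and Trim34a. At 1 month rod-like cells gave 2 of 4 against 6.31%, and the cluster led by Hist1h2ap, Cd209a and Retnla 0 of 1 against 7.4%. At 2 months the counts were 3 of 4 against 5.21% in endothelial-like cells, 1 of 2 against 4.89% in mural-like cells and 1 of 2 against 7.07% in macrophage-like cells. The single mural-like call was Arl6ip1, which the subtraction of RPE transcripts ended. The Cadm2-led cluster gave 2 of 4 against 5.31% and the Gpx3-led cluster 2 of 3 against 6.38%, each with 1 call after that subtraction. Over all kept cells at both ages, 6 of 8 members were apart, against 2.03%, in libraries that differed in their mix of classes. For rod-like and macrophage-like cells the age with more members measured was used. Over both ages 0 members were measured in rod-like cells, and 0 of 1 was apart in macrophage-like cells.

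Where the members had been chosen, the counts are stated only as a description. In RPE-like cells 2 of 3 members measured at both ages (Arl6ip1 and Hddc3) were 2-fold apart at both, beside 0.443% of all genes. In fibroblast-like cells it was 2 of 6 (Gm35082 and Trim12a), beside 0.538%. In the Cox8b-led cluster, which carried RPE markers, 4 of 4 were apart at 2 months, beside 5.86%. The RPE count was 4 of 4 with no barcodes removed as doublets, and 1 of 1 with coarser clusters. With no barcodes removed, a cluster of 579 cells led by Cox8b was among those named RPE-like. Among the coarser clusters, 1 of 729 cells in all carried RPE markers but was led by hemoglobin genes and had no name.

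Of 8657 genes measured in at least 6 pairs of class and age, 3 were apart by 2-fold or more, always one way, in every pair measured: Gm35082, Trim12a and Gdpd3. All 3 lie on chromosome 7, which held 616 of the 8657 genes. Gm35082 and Trim12a were members, chosen from these same libraries, so their shared chromosome is a description only. Both also reached 30 UMIs through 1 genotype alone, as Gdpd3 did in the lymphoid and macrophage-like classes printed below. In all, 89 genes kept the same sign in every pair. Gdpd3 (126766334 to 126775649), a glycerophosphodiester phosphodiesterase, was not among the genes selected. It was higher in knockout in all 8 pairs with at least 30 UMIs, with a median log2 ratio of 4.34. B cell-like cells held 1 UMI in wild type and 278 in knockout, T or NK cell-like cells 4 and 378, and macrophage-like cells at 2 months 4 and 150. In fibroblast-like cells at 2 months, with 11 and 13 UMIs, under the minimum, its ratio was -0.33 (-1.60 to 0.98), so the gap did not extend to every class. With a minimum of 10 UMIs in place of 30, Gdpd3 left the set and Trim30d, Trim34a, Serpina3n and Srp54c joined it. The set then held 6 genes, and the 4 of them on chromosome 7 were all members.

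**Figure D4:**
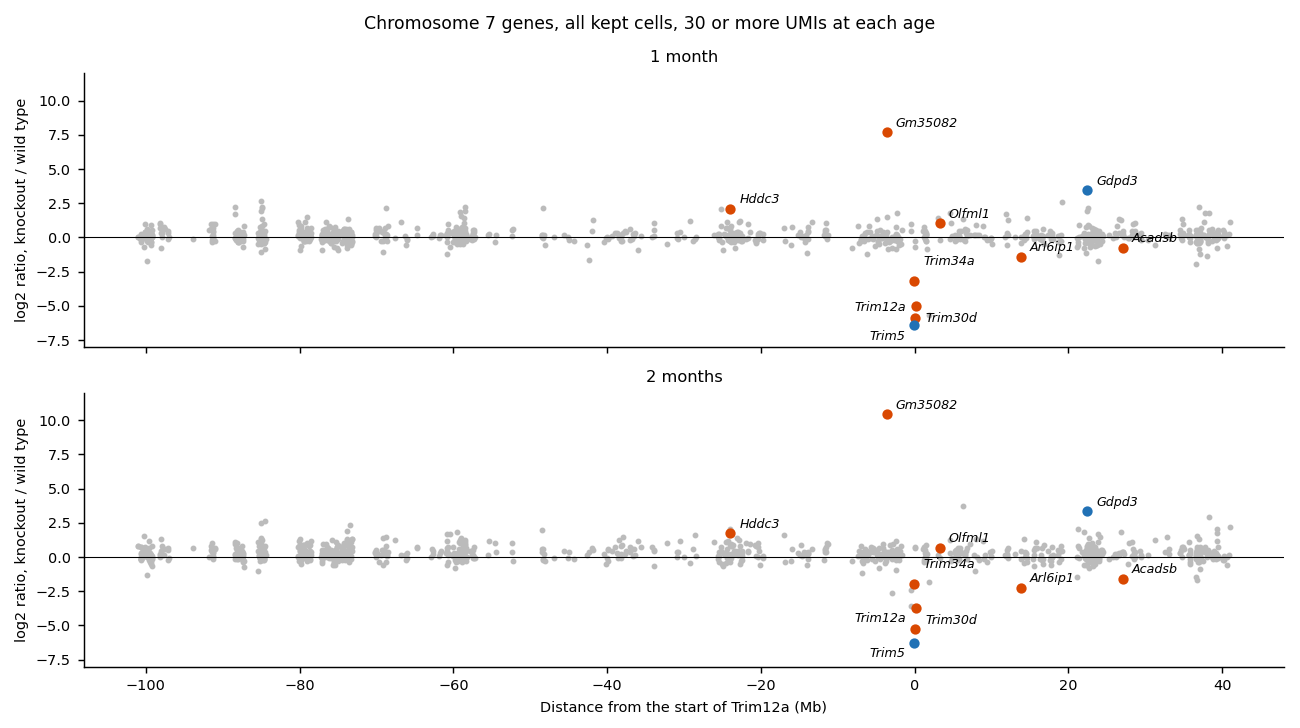
Log2 ratio of knockout to wild type over all kept cells for chromosome 7 genes with at least 30 UMIs at each age, against distance from the start of Trim12a (Mb), with members in orange and Gdpd3 and Trim5 in blue. Gm35082 lies highest and Trim12a and Trim5 lowest at both ages. Trim30d (-4.98 and -3.73) and Trim34a (-3.17 and -1.97) are low at both, though Gvin1 (-5.69 and -1.83) and Hbb-bt (0.47 and -3.61) reach as low at 1 age, while Acadsb (-0.75 and -1.59) and Olfml1 (1.05 and 0.69) lie within the spread of the other genes. In all, 2.35% of 85 measured neighbours were 2-fold apart at both ages against 2.03% of all genes.

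Genes near the members on chromosome 7 were read beside the share of all genes. Within 1 Mb of a member, 0 of 22 neighbours measured in RPE-like cells were at least 2-fold apart at both ages, beside 0.443% of all genes. In fibroblast-like cells 1 of 62 was (Plekhb1, 1.61%), beside 0.538%. At such shares few calls can fall in lists of this size. Of the chromosome 7 TRIM genes, 0 were measured in RPE-like cells at both ages. Median log2 ratios of these neighbours in RPE-like cells were -0.09 and -0.12 at 1 and 2 months, beside -0.00 and -0.01 for all genes. Of the 22, 11 were lower and 3 higher in knockout at both ages, beside 931 lower and 832 higher of all 3161 genes. Rps15a, a ribosomal protein gene next to Arl6ip1, had ratios of -0.66 and -0.68 in RPE-like cells, and Ucp2, a mitochondrial carrier, -0.42 and -0.44. Rlbp1, the RPE retinaldehyde-binding protein, had -0.37 and -0.27. Over all kept cells Smg1, on the other side of Arl6ip1, had 0.00 and 0.43, and the neighbours of Acadsb, Ikzf5 and Bub3, 0.29 and 0.39, and 0.07 and 0.22. Syt9 and Ppfibp2 beside Olfml1 had 1.44 and 0.17, and -0.15 and -0.08. Hbb-bs, a hemoglobin gene that precedes Trim34a, had 0.96 and -2.43, and Fam160a2 after Trim30d 0.51 and 0.57. Near Vldlr itself, within 5 Mb on chromosome 19, 0 of 14 genes measured in RPE-like cells were 2-fold apart at both ages, with Slc1a1 at -0.37 and -0.78 and Gldc at -0.47 and -0.27. In fibroblast-like cells 1 of 29 was (3.45% beside 0.538% of all genes), the alarmin cytokine Il33 at 1.51 and 1.60.

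Other genes of the members' pathways were read in RPE-like cells beside the 0.443% of all genes that were 2-fold apart at both ages, a share at which few calls can fall in short lists. Of 13 measured genes of branched-chain amino acid breakdown, 0 were 2-fold apart at both ages, and Bcat1 (1.38 and 0.48), Auh (0.40 and 0.52) and Mcee (-0.24 and -0.11) had the largest ratios of the same sign. Among 8 measured genes of endoplasmic reticulum shaping only Arl6ip1 was 2-fold apart. Rtn3, a reticulon, had -0.35 and -0.31, and Rrbp1 0.73 and 0.07. Of 3 genes handling NADP or ppGpp, Hddc3 was apart, whereas Hddc2 had -0.59 and 0.09 and Nadk -0.24 and 0.02. Olfm1, the other measured olfactomedin gene, had -0.41 and -0.18.

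Of 19 interferon-induced genes, 4 were measured in RPE-like cells. All 4 had ratios below 0 at both ages, with medians of -1.05 and -0.76, and 0 of 4 were 2-fold apart at both. Ifitm3 had -1.69 and -1.0, Ifi27 -0.72 and -1.03, and Bst2 -1.39 and -0.53. In fibroblast-like cells 11 of 17 were lower and 1 higher at both ages, with medians of -0.60 and -0.27. Over all kept cells 7 of 19 were lower and 1 higher at both ages, with medians of -0.54 and 0.26. Whether this had a part in the TRIM levels was not tested.

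The genes with the nearest profile of ratios were also sought, by the root mean square difference of log2 ratios over at least 6 shared pairs. For Arl6ip1 they were Rnf41 (0.37 over 9 pairs) and Slfn8 (0.44 over 6). For Acadsb they were Serpini1 (0.50 over 6) and Zcchc18 (0.61 over 6), and for Hddc3 Ndn (0.99 over 7) and Slx4ip (1.02 over 6). For Trim12a the nearest were Pttg1 (3.28 over 7) and Ddx3y (4.24 over 7), and for Gm35082 Hddc3 (5.62 over 6) and Dcn (5.73 over 8). With differences of 3.28 to 5.73 in log2 ratio, these profiles were the nearest found but were not similar. The median log2 ratio was 2.07 for Hddc3 and 0.68 for Dcn, against 6.97 for Gm35082. For the nearest genes of Hddc3 it was 0.90 (Ndn) and 0.24 (Slx4ip), also well below that of Hddc3. Genes that shared fewer than 6 measured pairs with a member, among them Trim5 with Trim12a and Gdpd3 with Gm35082, were not part of the search. Pttg1, on chromosome 11, was lower in RPE-like cells of both knockout libraries (71 against 2 UMIs and 1143 against 7) but higher in the cluster led by Hist1h2ap, Cd209a and Retnla (23 against 48).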

How the data were processed

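Single-cell libraries of RPE and choroid from 2 genotypes and 2 ages were used, 1 library per group. The deposited files hold raw UMI counts per gene and barcode, whole numbers that were not normalized. Cell Ranger 6.0.2 made both 1-month tables and 7.0.1 both 2-month tables, per the file headers, while Cell Ranger 3.0, Seurat 4.0 and mm9 stand in the submitters' processing notes. The counting of intronic reads is not given in these sources, so levels were compared within an age. Of 32285 gene identifiers, 32235 matched GENCODE M21 (GRCm38), which gave the coordinates.

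Barcodes with fewer than 300 genes or over 30% mitochondrial UMIs were left out. Scrublet (scanpy 1.11.5) marked 26 of 6555, under 0.5%, too few for doublet removal to have worked. Cells were scaled to 10000 counts, and 2000 variable genes and 30 principal components gave a graph of 15 neighbours for Leiden clustering (leidenalg 0.10.2, resolution 1), with no integration. Clusters were named from marker genes, needing at least 3 detected. Counts were summed per class and library where both libraries of an age held at least 20 cells. Log2 ratios of CPM used 0.5 added counts, with exact conditional binomial 95% intervals, for genes with at least 30 UMIs in a pair. Levels have exact Poisson and shares exact Clopper-Pearson intervals. A level of 0 was bounded by 3 UMIs per library. With 1 library per group, no test across samples was made. The calculation was tested on simulated data. Python 3.11.15, scipy 1.17.1, numpy 2.4.6, matplotlib 3.10.9, pandas 2.3.3 and edgeR 4.0.16 (TMM only, R 4.3.3) were used. RefSeq promoters come from build GRCm38.p6.

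The members, gene lists and comparisons were chosen with earlier results of these data known. Named were all members, up to 3 genes per list with the largest smaller ratio of both ages in RPE-like cells, the nearest measured gene on each side of a member, genes 2-fold apart in every pair, and the 2 nearest profiles. A gene that this rule names is not reported here. Hddc2, Nadk, 5 further TRIM genes in single classes, Pttg1 counts and the Malat1 split values were described after they were seen. Several choices were made after the clusters or the member values had been seen: 4 rules that left clusters unnamed by their leading genes, the minimum of 20 cells, and the age used per class, which for rod-like and macrophage-like cells was the age with more members measured where the design had asked for both. A further naming rule was tried, left the Malat1-rich RPE cluster unnamed, and was dropped after member values under it had been seen. Alternatives covered scaling, count minimum, barcode filters, added counts, RPE carry-over, doublets, clustering, thinning and Malat1. In the lists, Mx1 was absent by symbol and Nnt matched 2 identifiers.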

Additional observations from a re-analysis of the deposited data

How the results depend on the processing

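Of 780 recomputed log2 ratios, 536 were of values 2-fold apart as reported. Of these, 0 changed sign and 4 came under 2-fold, namely Olfml1 over all kept cells at 1 month with TMM scaling (0.96) and Arl6ip1 in mural-like cells and the Cadm2-led and Gpx3-led clusters after subtraction of RPE transcripts. TMM moved all ratios over all kept cells at 2 months by -0.25 and left 175 genes 2-fold apart there at both ages. With at least 10 UMIs in place of 30, the genes apart numbered 657 in B cell-like, 1160 in endothelial-like, 120 in fibroblast-like, 1169 in macrophage-like, 1135 in mural-like, 29 in RPE-like, 1112 in rod-like and 798 in T or NK cell-like cells. In the clusters led by Cadm2, Cox8b, Gpx3, Hist1h2ap and Lyz2 they numbered 1084, 1211, 1395, 1203 and 734. Members apart were then 5 in endothelial-like, 5 in macrophage-like and 3 in mural-like cells, and 4, 4 and 5 in the Gpx3-led, Hist1h2ap-led and Lyz2-led clusters. With at least 1 UMI, the genes numbered 3982, 3516, 859, 3930, 4585, 408, 2904 and 3387 in the same order of classes, 1257 over all kept cells, and 4898, 2814, 3597, 4598 and 4076 in the clusters. Members were then 7 in B cell-like, 6 in endothelial-like, 4 in fibroblast-like, 7 in macrophage-like, 6 in mural-like and 6 in RPE-like cells, and 4, 7, 5, 7 and 6 in the clusters. RPE-like cells gave 8 genes with at least 1000 genes per barcode, 8 genes and 1 member with coarser clusters, and 4 members without doublet removal. The Lyz2-led cluster gave 5 members with coarser clusters, and the Gpx3-led cluster 1 member at 15% mitochondrial UMIs. Subtraction of RPE transcripts left 0 members in mural-like cells and 1 each in the Cadm2-led and Gpx3-led clusters. The number of genes apart the same way in every pair was 6 at 10 UMIs and 9 at 1 UMI. Of the alternatives chosen after seeing the data, naming without the added rules gave 2 macrophage-like members, and both ages gave 0 members and 16 genes in macrophage-like and 0 members and 0 genes in rod-like cells. The cause of these changes was not tested, except that a lower minimum tests more genes of few counts. No paired analysis was possible because each group holds 1 library, the labels give no replicate numbers that pair libraries across groups, and no result comes from a test. Depth left 3 members measured in RPE-like cells at 1 month, and fewer in some smaller classes.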
